A study of Rattus norvegicus with 6 samples.

Results

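Rat miR-146a-5p and miR-146b-5p (rno-miR-146a-5p and rno-miR-146b-5p in the files) are a pair of microRNAs (miRNAs) with the same seed, made from different genes, and both were measured in rat left ventricle with and without a myocardial infarction (MI). They were chosen by name as 2 of the 758 rat miRNAs on the array. The MI group held 3 arrays of left ventricular myocardium from male rats aged 8 weeks, taken 24 h after the left coronary artery was tied off. The control group held 3 arrays of the same tissue from male rats of the same age that had the same operation without ligation and are labelled 0 h, so that ligation and time after surgery cannot be told apart. The strain is not given in the sources used here, and nothing in the labels says that the arrays of a group came from separate animals. The p-values therefore reflect only how far these arrays spread, which may be technical.

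A miRNA is a short RNA that pairs, mostly through its seed near the 5′ end, with messenger RNAs and lowers their output. In human and mouse immune cells, miR-146a is a known target of the transcription factor NF-κB. Both miR-146a and miR-146b are known to repress TRAF6 and IRAK1, proteins that carry signals from Toll-like and interleukin-1 receptors to NF-κB. The pair is therefore described as a negative feedback on inflammatory signalling, and in human monocytes miR-146b is also known as a target of STAT3 downstream of anti-inflammatory cytokines. An infarct is followed by such signalling in injured muscle and by entry of neutrophils and monocytes.

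The mature sequences show what the pair shares and where it differs. They are given 5′ to 3′ from RefSeq (rat assembly GRCr8, which is not the build named in the array files), with the seed, bases 2 to 8, in capitals.
miR-146b-5p, chr1:255144874-255144897, plus strand: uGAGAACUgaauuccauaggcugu
miR-146a-5p, chr10:28350053-28350074, minus strand: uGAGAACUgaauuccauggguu
The first 17 bases were identical. Counted from 1 at the 5′ end, with the base of miR-146a-5p first, the differences were G18A and U21C, and miR-146b-5p ran on for 2 more bases. The probe sequences were not used here, and how far a probe for one member also reads the other was not tested, which limits what every fold change of the pair given here means. No other mature rat miRNA of the RefSeq table carried this seed. The hairpins are shown with both mature strands in capitals because the second strand of each was also on the array.
Mir146b hairpin, chr1:255144860-255144947, plus strand: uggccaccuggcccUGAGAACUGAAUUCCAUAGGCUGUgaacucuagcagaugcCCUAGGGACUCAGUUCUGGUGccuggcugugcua
Mir146a hairpin, chr10:28349996-28350090, minus strand: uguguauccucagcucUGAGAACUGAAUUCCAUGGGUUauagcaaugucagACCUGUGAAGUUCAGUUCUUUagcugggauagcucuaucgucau
In the RefSeq gene table Mir146b overlapped the bounds of the protein-coding gene C1h10orf95, with Cuedc2 and Mfsd13a as the nearest genes on its sides. Mir146a overlapped the bounds of a long non-coding RNA gene, LOC134480673. The nearest genes on its sides were Pttg1 and another long non-coding RNA gene, LOC120095073. Exons and strands of those genes were not used here.

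Between 446 and 472 miRNAs were detected per array (a miRNA counted as detected where over 50% of the spots of any of its probes were well above background), and 449 that were detected on all arrays of a group were tested. The labelled heart muscle was checked with 6 miRNAs known from cardiomyocytes, such as miR-1-3p and miR-133a-3p, and all 6 were detected on all 6 arrays. The array codes in the file headers begin with 1 for MI replicate 1 and the 3 controls and with 2 for MI replicates 2 and 3, and control replicate 3 was scanned apart from the other 5 arrays.

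MiR-146b-5p was higher on every MI array than on any control array, as were 10.9% of the tested miRNAs. Its signal, scaled to the 75th percentile of each array, was 987, 1351 and 1411 in MI replicates 1 to 3, against 357, 343 and 368 in control replicates 1 to 3. The means were 1249.6 ± 229.7 in MI and 356 ± 12.4 in control samples (SD, n = 3 each). MI replicate 1 was the lowest of its group, and the coefficient of variation was 18.4% in MI and 3.49% in control samples. On the log2 scale the rise was 1.79 ± 0.14 (SE; 95% interval 1.45 to 2.14), or 3.47-fold, with a limma adjusted p of 0.00209. Over the 9 pairings of an MI with a control array, the ratio ran from 2.68-fold to 4.11-fold. Among the 449 tested miRNAs, 11 (2.45%) had an adjusted p under 0.05 in limma, 8 (1.78%) of them higher in MI and 3 (0.668%) lower. MiR-146b-5p had the second highest log2 fold change, after miR-21-3p, in this fit. The rank moved with the processing: miR-21-3p stood below it with normexp background correction (0.56), and in the authors' values miR-222-5p stood above it as well (4.13). The series' title already names this miRNA, so its direction is not independent evidence. The arrays measured whole tissue, in which more cells of a type and more RNA per cell cannot be told apart.

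MiR-146a-5p, the partner with the same seed, was not past the threshold, and its values lay on the other side. Its scaled signal was 5816, 5717 and 5983 in MI replicates 1 to 3, against 6578, 7617 and 7312 in control replicates 1 to 3. The means were 5839 ± 134 in MI and 7169 ± 534 in control samples (SD, n = 3 each), and the groups did not overlap. The gap between the highest MI array and the lowest control array was 0.14 on the log2 scale. Of all tested miRNAs, 20.7% had groups that did not overlap (10.9% higher and 9.8% lower in MI), so that such a separation was common. The log2 fold change was -0.29 ± 0.08 (SE; 95% interval -0.48 to -0.10), an MI level of 0.816 times the control level. The limma adjusted p was 0.194 (unadjusted 0.00864, n = 3 per group). Of all tested miRNAs, 13.6% had an unadjusted p under 0.05, and 5.12% had one and were lower in MI. The spread went the opposite way from that of its partner, with a coefficient of variation of 2.30% in MI and 7.45% in control samples.

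**Figure D1:**
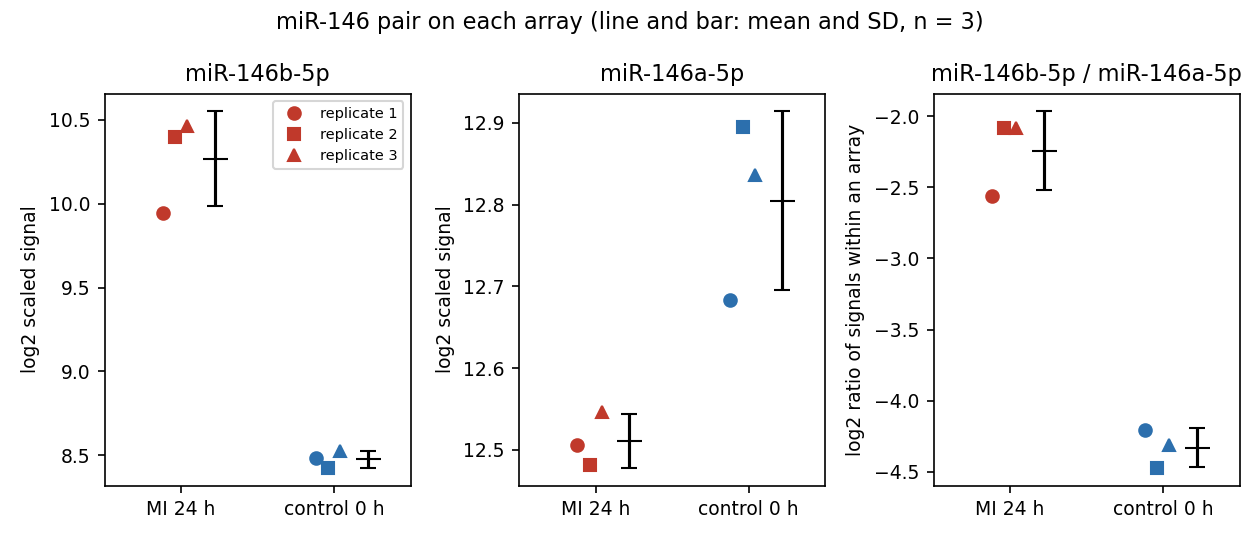
Log2 scaled signal of miR-146b-5p (left) and miR-146a-5p (middle), and the log2 ratio of the 2 signals within each array (right), for 3 MI and 3 control arrays, with the mean and SD beside the points. MI arrays lie above all controls for miR-146b-5p (9.95 to 10.46 against 8.42 to 8.52) and below them for miR-146a-5p (12.48 to 12.55 against 12.68 to 12.90); the vertical axes differ in range.

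The difference in response between the partners was tested through the ratio of their signals within each array, which does not depend on how arrays are scaled to each other by a factor. Since the miRNAs were read by different probes, only the change of this ratio between groups carries meaning, not its level. The log2 ratio of miR-146b-5p to miR-146a-5p was -2.56, -2.08 and -2.08 in MI replicates 1 to 3, against -4.20, -4.47 and -4.31 in control replicates 1 to 3. Every MI array was above every control array by far more than the spread within either group. The ratio was 2.09 ± 0.16 higher in MI on the log2 scale (SE; 95% interval 1.73 to 2.44), or 4.25-fold. In a limma fit of the ratio of each of 448 tested miRNAs to miR-146a-5p, the adjusted p was 0.000176, and 15.2% of these ratios were called, all of them higher in MI. MiR-146b-5p had the smallest p of the 448. A two-sided exact permutation test of the single ratio gave p = 0.1, the smallest that 3 against 3 samples allow.

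Among tested miRNAs that share a seed, the miR-146 pair had the widest split. Mature RefSeq sequences were matched by name to 409 of the 449 tested miRNAs, and 125 pairs of them shared bases 2 to 8, over 41 seeds. The median absolute difference in log2 fold change within such a pair was 0.08. The miR-146 pair stood at 2.09, and the next pair, miR-132-3p and miR-212-3p, which come from one gene region, at 0.89. Pairs within a large seed family share members, and the ranking is a description without a test.

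**Figure D2:**
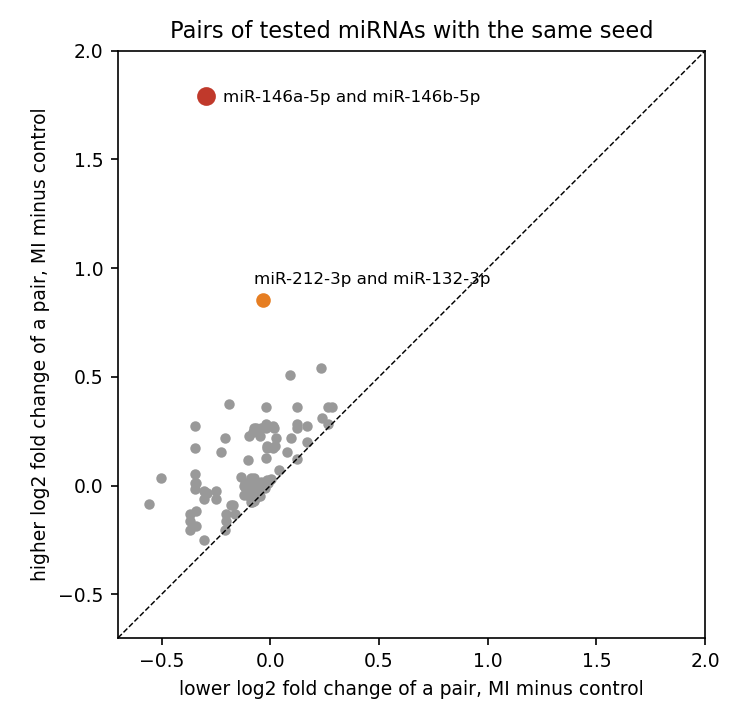
Each point is 1 of 125 pairs of tested miRNAs with the same seed; the axes give the lower and the higher log2 fold change (MI minus control) of the pair, and the dashed line marks equal change. The miR-146 pair (-0.29 and 1.79) lies farthest from the line, followed by miR-212-3p and miR-132-3p (-0.03 and 0.85).

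Each member was read by 2 probes with 8 spots each per array, and all spots of all 4 probes were well above background on all 6 arrays. The probes A_26_P00002469 and A_26_P00002601 read miR-146b-5p. For A_26_P00002469 the mean scaled signal was 449.2, 637 and 667 in MI replicates 1 to 3, against 146.1, 137 and 150.2 in control replicates 1 to 3. For A_26_P00002601 it was 537, 714 and 745 in MI, against 211, 207 and 218 in control replicates 1 to 3. Spots flagged as outliers were left out, which kept as few as 4 of 8 (A_26_P00002601 on control replicate 2). Among the spots kept, both probes separated the groups down to single spots. The lowest MI spot was 433 and the highest control spot 156 for the first probe, and they were 480 and 238 for the second.

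In a limma fit over 926 detected probes, of which 2.05% were called (1.73% higher in MI and 0.324% lower), the log2 fold change was 2.00 ± 0.16 for A_26_P00002469 and 1.64 ± 0.13 for A_26_P00002601, both with an adjusted p of 0.00147. The probes thus differed in the size of the rise, 3.99-fold against 3.11-fold, and the part of cross-reading in this was not tested. The log2 ratio of the first probe to the second was -0.19 ± 0.06 in MI and -0.55 ± 0.03 in control samples (SD, n = 3 each). The 3 MI arrays were all above the 3 controls, and the exact two-sided permutation p was 0.1, the smallest possible.

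For miR-146a-5p the 2 probes gave nearly the same change. The log2 ratio of A_26_P00001390 to A_26_P00002583 was -0.47 ± 0.01 in MI and -0.44 ± 0.01 in control samples (SD, n = 3 each). The groups did not overlap in this ratio either (exact two-sided permutation p = 0.1, the smallest possible). A_26_P00001390 had a mean scaled signal of 2424, 2405 and 2509 in MI replicates 1 to 3, against 2803, 3236 and 3089 in control replicates 1 to 3. A_26_P00002583 had 3391, 3313 and 3474 in MI, against 3775, 4381 and 4223 in control replicates 1 to 3. Every MI array was below every control array on either probe. With flagged outliers left out, 5 of 8 spots were kept for A_26_P00001390 on MI replicate 1 and for A_26_P00002583 on control replicate 1. Among the spots kept, those of the MI arrays, up to 2686 and 3529, did not reach the lowest control spots of 2697 and 3756. The log2 fold changes were -0.31 ± 0.08 and -0.28 ± 0.08 (SE), with limma adjusted p of 0.137 and 0.198 over the 926 probes. Spots on one array are technical repeats of one sample. Their coefficient of variation lay between 0.613% and 8.39% for the 4 probes.

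**Figure D3:**
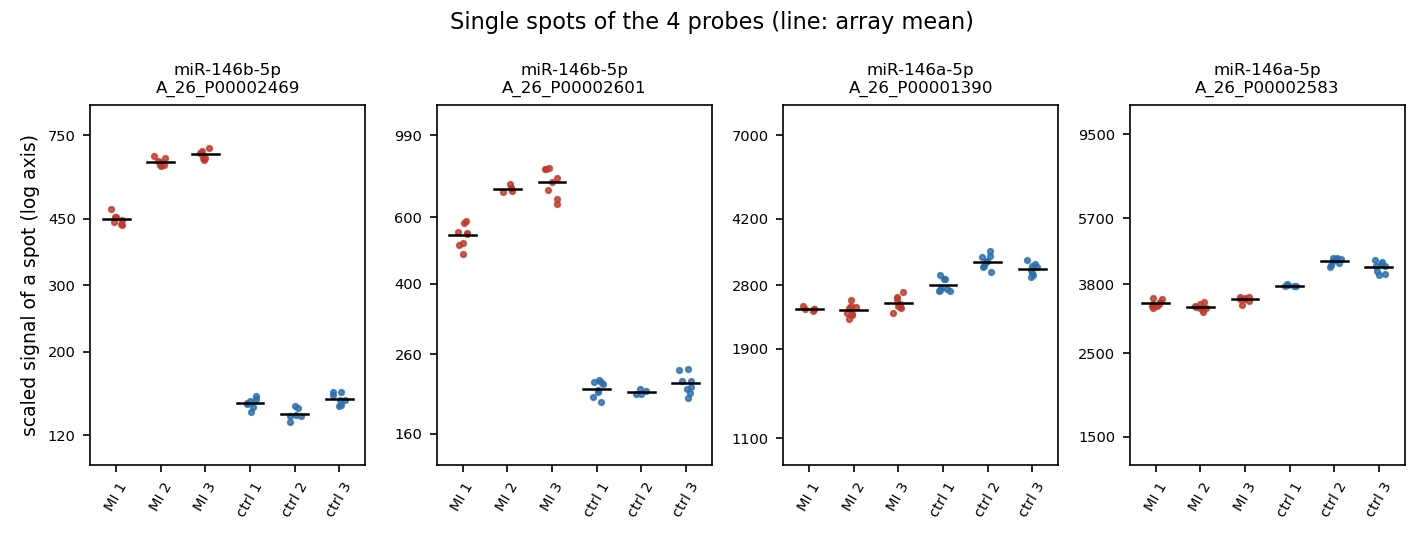
Scaled signal of single spots (points, outlier spots left out) and their mean (line) on each array for the 2 probes of miR-146b-5p and the 2 probes of miR-146a-5p, on log axes that each span the same fold range. Spots of the MI arrays lie above those of the controls for miR-146b-5p and just below them for miR-146a-5p, and MI replicate 1 is the lowest MI array for miR-146b-5p.

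The second strands of the hairpins, miR-146b-3p and miR-146a-3p, are usually degraded and were not tested, because neither was well above background on any array by the rule used here. The scanner software's own flag marked miR-146a-3p as detected on 3 of 3 control arrays and on 0 of 3 MI arrays. On its brighter probe, A_26_P00002725, the scaled signal was 3.98, 5.30 and 4.68 in MI replicates 1 to 3, against 7.36, 7.91 and 7.14 in control replicates 1 to 3. The MI arrays were all lower, but 1 spot in all was well above background, on control replicate 2. The software flag marked miR-146b-3p as detected on no array. On its brighter probe, A_26_P00002966, the scaled signal was 1.49, 4.41 and 5.31 in MI replicates 1 to 3, against 1.34, -0.34 and 0.94 in control replicates 1 to 3. The MI arrays were all higher, but 0 spots were well above background, and MI replicate 1 lay close to control replicate 1. For this reason neither second strand was tested between groups, and no direction is read from these values near background.

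The arrays with header code 1 allow a comparison within one code. It rests on 1 MI array, since code 2 holds MI samples alone, and a fit of all 6 arrays with the code as a block estimates the same difference. MI replicate 1 against the 3 controls gave a log2 difference of 1.47 for miR-146b-5p, -0.30 for miR-146a-5p and 1.77 for their ratio, both within code 1 and with the block. These are given as values without a test, because the spread of an MI group cannot be had from 1 array, and for miR-146b-5p the log2 SD was 0.28 in MI and 0.05 in control samples. Without control replicate 3, the array scanned apart, miR-146b-5p stood at 1.82 and miR-146a-5p at -0.28.

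Other miRNAs that inflammatory signals induce were described as a list of 9, of which 7 were tested. With limma p-values adjusted over the whole table, 3 of these were higher in MI, 0 were lower and 4 were not past the threshold, where 1.78% of all tested miRNAs were called higher. Without MI replicate 1 the count of higher ones was 5. The median log2 fold change of the 7 was 0.85, beside 0.02 over all tested miRNAs. The list was written with earlier results of these data known, so its count and median are a description and no independent evidence. MiR-21-5p, the abundant strand of a miRNA induced in injured heart, rose by 1.03 ± 0.08, and its second strand miR-21-3p by 2.00 ± 0.19 on the log2 scale (limma adjusted p = 0.00209 and 0.00356). MiR-132-3p, known to be switched on by CREB, rose by 0.85 ± 0.14 (limma adjusted p = 0.0332), and this call was lost under 15 of 24 alternatives. With normexp background correction, miR-21-3p stood at 0.56 and miR-132-3p at 0.38. MiR-223-3p, a myeloid miRNA that restrains neutrophil activation in mice, stood at 1.45 ± 0.29 (limma adjusted p = 0.0619). It stood at 0.76 within array code 1, and at 1.76 without MI replicate 1, where it passed (limma adjusted p = 0.00473).

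The other tested members of that list were not past the threshold. MiR-155-5p, which activated immune cells make and which in mouse macrophages often works against miR-146a, stood at 0.19 ± 0.10 with overlapping groups (0.11 without MI replicate 1), miR-212-3p at -0.03 ± 0.11, and miR-9a-5p at -0.52 ± 0.26 (-0.78 without MI replicate 2). MiR-147 was detected on 2 of 3 MI and 1 of 3 control arrays and miR-187-3p on none, so neither was tested. The log2 ratio of miR-146b-5p to miR-21-5p was -4.38 ± 0.37 in MI and -5.14 ± 0.04 in control samples (SD, n = 3 each), higher by 0.76 in MI with no overlap (exact two-sided permutation p = 0.1, the smallest possible). In all, 5 such ratios of a member to another miRNA were tested, and the smallest Benjamini-Hochberg adjusted exact p over them was 0.167. The rise of miR-146b-5p was thus larger than that of miR-21-5p on each MI array.

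A second list held 5 miRNAs that are known from human or mouse cells to act on other parts of the NF-κB pathway. By limma, 0 of the 5 had an adjusted p under 0.05, and 1 had an unadjusted p under 0.05, namely miR-223-3p. MiR-10a-5p, which lowers NF-κB activity in human endothelium, stood at -0.24 ± 0.19 (-0.44 without control replicate 1, -0.11 without control replicate 2 and -0.14 without MI replicate 3), and miR-181b-5p, which limits nuclear import of NF-κB there, at -0.06 ± 0.07. MiR-199a-5p, known to repress the kinase IKKβ in human tumour cells, stood at 0.08 ± 0.17 (-0.016 with median scaling), while the remaining members, miR-9a-5p and miR-223-3p, are also on the list above. The median log2 fold change of the 5 was -0.06.

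**Figure D4:**
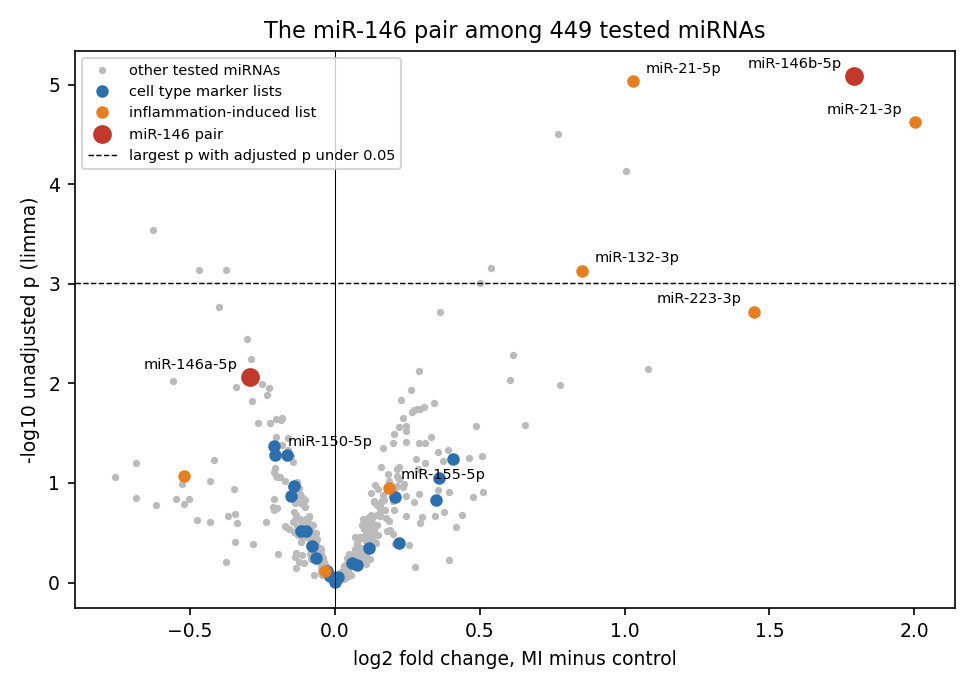
Log2 fold change (MI minus control) against -log10 of the unadjusted limma p for the 449 tested miRNAs, with the miR-146 pair, the inflammation-induced list and the cell type marker lists coloured. MiR-146b-5p (1.79) stands with miR-21-3p (2.00) and miR-21-5p (1.03) at the upper right, while miR-146a-5p (-0.29) lies below the dashed line of the largest p that passed.

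Markers of blood cells were measured beside miR-146b-5p. Of 5 myeloid and pan-leukocyte miRNAs, 4 were tested and 0 were past the limma threshold, with 1 (miR-223-3p) at an unadjusted p under 0.05. Their summed scaled signal ran from 10423 to 16336 over the MI arrays and from 8407 to 9895 over the controls. MiR-223-3p, the main myeloid marker, had a log2 signal of 11.64, 12.84 and 12.51 in MI replicates 1 to 3, against 10.80, 10.89 and 10.95 in control replicates 1 to 3. MI replicate 1, the only MI array of header code 1, was the lowest MI array for this miRNA as it was for miR-146b-5p. The highest was MI replicate 2 for miR-223-3p and MI replicate 3 for miR-146b-5p. The log2 ratio of miR-146b-5p to miR-223-3p was -2.06 ± 0.37 in MI and -2.40 ± 0.07 in control samples (SD, n = 3 each), a difference of 0.35 that was within the spread (exact two-sided permutation p = 0.3).

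MiR-142-3p, found across white blood cells, stood at 0.21 ± 0.12, and miR-223-5p was detected on no array. Against miR-142-3p, the log2 ratio of miR-146b-5p was -2.46 ± 0.11 in MI and -4.05 ± 0.14 in control samples (SD, n = 3 each), with no overlap (exact two-sided permutation p = 0.1, the smallest possible). The part of infiltrating cells in the rise of miR-146b-5p was not tested.

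Beside miR-146a-5p, which lymphocytes are known to express, 3 lymphocyte miRNAs were measured and 0 were past the limma threshold, adjusted or unadjusted. Their summed scaled signal was 8193 to 8356 in MI and 8966 to 9940 in control samples, without overlap, and miR-150-5p made up most of it. MiR-150-5p, a marker of mature lymphocytes, had log2 signals of 12.55, 12.57 and 12.57 in MI replicates 1 to 3, against 12.71, 12.93 and 12.68 in control replicates 1 to 3. All 3 MI arrays lay below the controls, as they did for 9.8% of all tested miRNAs. In limma miR-150-5p stood at -0.21 ± 0.09 (adjusted p = 0.373; -0.13 without control replicate 2) and miR-342-3p at -0.17 ± 0.07. The third, miR-181a-5p, stood at -0.03 ± 0.09, and its groups overlapped. The log2 ratio of miR-146a-5p to miR-150-5p was -0.05 ± 0.03 in MI and 0.03 ± 0.11 in control samples (SD, n = 3 each), a difference of -0.09 within the spread (exact two-sided permutation p = 0.2). Ratios to miR-342-3p and miR-181a-5p were not tested. MiR-150-5p is also one of the 5 miRNAs nearest to miR-146a-5p in pattern, given below. MiR-181a-5p changed less than miR-146a-5p (-0.03 against -0.29). The part of lymphocytes in the values of miR-146a-5p was not tested.

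The remaining marker lists had 0 members with a limma adjusted p under 0.05, and 1 member, miR-208a-3p, with an unadjusted p under 0.05. The 2 endothelial miRNAs, miR-126a-3p and miR-126a-5p, stood at -0.14 ± 0.08 and -0.15 ± 0.09, with a summed scaled signal of 74116 to 74562 in MI and 76179 to 87862 in control samples. The 6 cardiomyocyte miRNAs had a median of -0.04, with miR-1-3p at -0.02 ± 0.08 and miR-133a-3p at -0.10 ± 0.09, and summed to 384746 to 407540.0 in MI and 365101 to 429545 in control samples. The 4 smooth muscle and fibroblast miRNAs had a median of -0.0019, with miR-143-3p at -0.12 ± 0.10 and miR-145-5p at -0.08 ± 0.09. The 4 erythroid miRNAs had a median of 0.35, with miR-451-5p at 0.36 ± 0.18 and miR-144-3p at 0.35 ± 0.21, and their groups overlapped. Against miR-1-3p, the most used heart muscle marker, the log2 ratio of miR-146a-5p was -4.49 ± 0.07 in MI and -4.21 ± 0.14 in control samples (SD, n = 3 each), lower by 0.28 with no overlap (exact two-sided permutation p = 0.1, the smallest possible). Of the 6 cardiomyocyte miRNAs, only miR-208a-3p had groups that did not overlap. It was lower in MI, at -0.21 ± 0.08, beside -0.29 ± 0.08 for miR-146a-5p. Ratios of miR-146a-5p to cardiomyocyte miRNAs other than miR-1-3p were not tested.

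The miRNAs most like each member were found by the root mean square distance over the 6 arrays between log2 signals, each centred on its own control mean. The nearest to miR-146b-5p were miR-21-3p at a distance of 0.28, miR-223-3p at 0.33, miR-490-5p at 0.57, miR-21-5p at 0.58 and miR-222-5p at 0.67, where the median over all others was 1.27. MiR-222-5p was well above background on 0 of 3 control arrays, and its log2 fold change was 1.08 as reported, 0.12 with a floor 4 times as high, 0.16 with normexp and 4.13 in the authors' values, so that its place among the nearest is not stable. MiR-146a-5p itself was at 1.49, with 420 of the other tested miRNAs nearer to miR-146b-5p than it was. Since each signal was centred on its control mean, these distances largely follow the log2 fold change. Counted from the highest, miR-146b-5p ranked 2, its 5 nearest ranked 1 and 3 to 6, and miR-146a-5p ranked 423 of 449. The distances to miR-146b-5p are therefore a description and no separate finding. The nearest to miR-146a-5p were miR-101a-5p, miR-3585-5p, miR-150-5p, miR-208a-3p and miR-101a-3p, all at 0.09, where the median was 0.28. These 5 had log2 fold changes between -0.29 and -0.20. Since they were picked for their likeness to miR-146a-5p, these values are a description. By limma, 0 of them had an adjusted and 4 an unadjusted p under 0.05, which that choice largely fixes, where 5.12% of all tested miRNAs had an unadjusted p under 0.05 and were lower in MI.

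In the authors' deposited log2 values, made by a procedure not given in the sources used here, the order of the groups was the same for both members. The median of each array was 3.95 on that scale, and whether values were centred beyond that is not known. Some values were equal to the last digit on different arrays. MiR-146b-5p had 9.437117 in MI replicates 2 and 3, and miR-146a-5p had 11.808308 in control replicates 2 and 3. The arrays may thus have been given one common set of values by rank, and equal values need not mean equal signals. MiR-146b-5p had 8.95, 9.44 and 9.44 in MI replicates 1 to 3, against 7.52, 7.47 and 7.50 in control replicates 1 to 3. MiR-146a-5p had 11.53, 11.42 and 11.59 in MI, against 11.71, 11.81 and 11.81 in control replicates 1 to 3. Neither miRNA had overlapping groups on this scale. Fitted in the same way, the log2 fold changes were 1.78 ± 0.15 (limma adjusted p = 0.00746) and -0.26 ± 0.06 (limma adjusted p = 0.130).

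**Figure D5:**
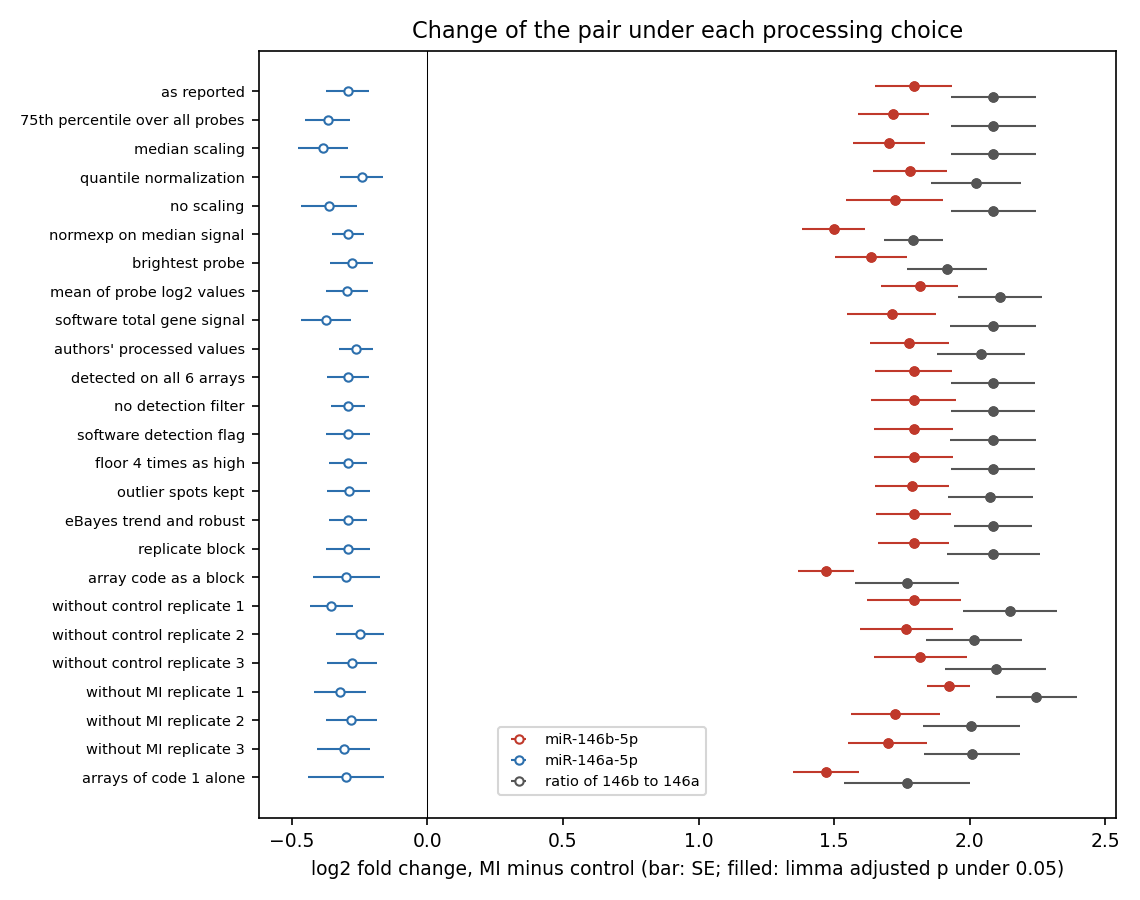
Log2 fold change (MI minus control) of miR-146b-5p, miR-146a-5p and their ratio as reported and under 24 other processing choices, with bars for the SE and filled points for a limma adjusted p under 0.05. MiR-146b-5p lies between 1.47 and 1.92 and is filled in every row, and miR-146a-5p lies between -0.39 and -0.24 and is filled in none. The rows that use the array code rest on MI replicate 1 alone, so their filling says nothing of the spread among MI samples.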

How the data were processed

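Single-colour Agilent miRNA arrays, 3 MI and 3 control, were grouped by their labels. The submitters' processing notes name Agilent Feature Extraction 11.0.1.1 for reading the spots. Per the file headers, the build is rn4, the spot values are intensity values, background-subtracted in the processed signal, and the other columns used are flags of 0 or 1. The authors' deposited series table holds log2 values, with a median of 3.95 in every column.

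Flagged outliers made up 8.32% to 9.63% of spots and were dropped before averaging by probe. Scaling used the 75th percentile per array, taken over 885 probes that every array detected. Probe values were then added up by miRNA, and lower ones raised to 5.14 before log2. No spot was saturated. Precision is limited by how few arrays there are. The comparison was fitted by lmFit and eBayes (limma 3.58.1, R 4.3.3; 4 residual degrees of freedom) with Benjamini-Hochberg adjustment over all tested features and a threshold of 0.05. The code was tested on simulated data. The members and lists were chosen with earlier results of these data known. The named miRNAs were the pair, their second strands, the list members (of each marker list, the first 2 tested, with miR-181a-5p added) and the 5 nearest patterns of each member. The planned normexp correction on mean signals was run on the median signals that the files carry.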

Additional observations from a re-analysis of the deposited data

How the results depend on the processing

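Over 24 alternatives, miR-146b-5p kept its direction and its call (1.47 to 1.92; limma adjusted p 0.000357 to 0.0386), and so did the ratio of the pair (1.77 to 2.25). The estimates of both fits that use the array code rest on MI replicate 1 alone, so their p-values say nothing of the spread among MI samples. MiR-146a-5p stayed negative without a call (-0.39 to -0.24; limma adjusted p 0.0579 to 0.524). Leaving out 1 sample at a time, miR-146b-5p ranged from 1.70 to 1.92, miR-146a-5p from -0.35 to -0.25 and the ratio from 2.01 to 2.25. Replicate numbers were not taken to pair samples, since the labels do not say that they do. Deviations from the group mean correlated at 0.12, -0.04 and 0.11 between same-numbered samples. MI replicate 1 stood at 0.52 with control replicate 2 and at -0.55 with control replicate 3. Such deviations cancel out within a group, which ties these correlations to each other, so they cannot decide whether samples were paired. With the replicate number as a block, miR-146b-5p was 1.79 (limma adjusted p = 0.0386), and the block gave 3 called miRNAs, where 11 are reported. That count was 7 with no scaling, 5 with no detection filter, 6 with a floor 4 times as high and 4 to 12 without single samples. It was 4 without MI replicate 2 and 5 without each of the controls. Counts from the fits that use the array code are left out, since those rest on MI replicate 1 alone. Fewer arrays or residual degrees of freedom enter several of these fits, and the cause of the others was not tested. Unadjusted, 61 miRNAs had a p under 0.05, and 36 to 79 over the alternatives. The inflammation-induced list had 3 called members, 1 with no filter, 1 with the replicate block, and 2 to 5 without single samples (5 without MI replicate 1). The NF-κB and the myeloid lists had 0, and 1 each (miR-223-3p) with eBayes trend and robust settings and without MI replicate 1 (0 to 1 without single samples). MiR-132-3p lost its call in 15 of the 24, miR-21-3p and miR-490-5p in 4 each, and miR-21-5p in 1, the arrays of code 1 alone. These counts include both fits that use the array code.

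Of 30 other named miRNAs and probes, 17 fits turned the sign of a value near 0. MiR-199a-5p stood at -0.016 with median scaling, -0.0048 in the software total signal, -0.042 in the authors' values, -0.10 with the array code as a block and within code 1, and -0.10 to 0.18 without single samples. MiR-212-3p stood at 0.053 in the authors' values, 0.072 with the code as a block, 0.071 within code 1, and -0.12 to 0.048 without single samples. MiR-1-3p stood at 0.052 with the code as a block, 0.051 within code 1, and -0.081 to 0.043 without single samples.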
